A study of Mus musculus with 15 samples.

Results

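The comparison of the high-fat diet (HF) with the yellow corn diet (YD) used the 6 libraries labelled HF replicates 1 to 3 and YD replicates 1 to 3, of 15 libraries in the series. The 6 lists were taken by diet label, and genes were then sorted by the number of mice of each diet with an enriched region near a transcription start site (TSS). H3K4me3 had been mapped by PAT-ChIP-seq, which is chromatin immunoprecipitation and sequencing from formalin-fixed, paraffin-embedded tissue, in livers of female mice of the strain labelled C57BL/6 (C57BL/6J in the study's methods), with 1 library per mouse and 3 mice per diet. The mice came from shared litters, and no label tied a mouse to a litter. Both groups were fed ad libitum for 10 months from an age of 3 months, although their labelled age is 12 months. The YD was the standard diet (SD) with its maize replaced by powder of an anthocyanin-free yellow corn, whereas the HF was a separate high-fat formula from another supplier, so that fat, protein, carbohydrate and corn all differed between the groups. The other groups of the series, used here only to place the genes, received the SD, caloric restriction on the standard formula (CR) or the purple corn diet (RD).

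H3K4me3 denotes histone H3 with 3 methyl groups on lysine 4. It is laid down around the start sites of genes by the SET1 and MLL enzymes, above all at promoters rich in CpG dinucleotides, where proteins that bind unmethylated CpG bring these enzymes to DNA. Broad and high H3K4me3 domains are known at genes that define a tissue, such as the albumin gene in liver. The mark accompanies transcription but does not measure it.

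The deposited lists hold the islands that SICER2 called, which are runs of enriched windows of 200 bp joined over gaps of up to 400 bp. The lists held 21280, 21310 and 13499 islands in HF_1, HF_2 and HF_3 and 7825, 9405 and 10906 in YD_1, YD_2 and YD_3. The reads behind each list, recovered from the steps of the score, numbered between 9749186 and 11548776 for HF and between 8337057 and 15449854 for YD. YD_1 had the most reads and the shortest list. The names of HF_2 and HF_3 carry the word PATChIP and those of HF_1 and of the YD libraries carry ChIP, so that the form of name and the diet could be separated only through HF_1. Because an island is either called or not, a gene without an island may carry the mark below the level of calling, and fewer marked cells cannot be told apart from less mark per cell. Nothing in the labels says more of the replicates than that they were separate mice.

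A gene was counted as marked in a mouse when an island lay within 1 kb of any of its TSSs. Of 21755 protein-coding genes, 11875, 10345 and 11214 were marked in HF_1, HF_2 and HF_3, and 5289, 5769 and 3811 in YD_1, YD_2 and YD_3. The lowest HF mouse lay above the highest YD mouse. The means were 51.2% ± 3.53 of genes in HF and 22.8% ± 4.69 in YD (SD, n = 3 each; difference 28.4 percentage points, two-sided exact permutation p = 0.1, the smallest that 3 against 3 mice allow). With the same number of top-scoring islands taken from every list, 7825, the difference was 15.2 points, with the same p of 0.1 (exact permutation test).

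A total of 2882 genes were marked in all 3 HF mice and in no YD mouse, which is 13.2% of protein-coding genes, and these are called HF-only genes. In the other direction, 2 genes were marked in all 3 YD mice and in no HF mouse, which is 0.00919%. In the equal-number lists the counts were 830 HF-only genes (3.82%) and 5 YD-only genes (0.023%). For any single gene the pattern of 3 mice against 0 has an exact p of 0.1 (Fisher's exact test, two-sided), so no gene was called changed on its own. These counts describe the 6 mice. The genes marked in YD lay almost entirely within those marked in HF. Of 2595 genes marked in all 3 YD mice, 99.5% were marked in all 3 HF mice, and of 7327 genes marked in any YD mouse, 95.9% were. A further 2582 genes were marked in all 6 mice and 9346 in none. Of the 830 genes of the equal-number lists, 678 were HF-only in the full lists too, which is 81.7% of the smaller set and 23.5% of the larger.

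**Figure D1:**
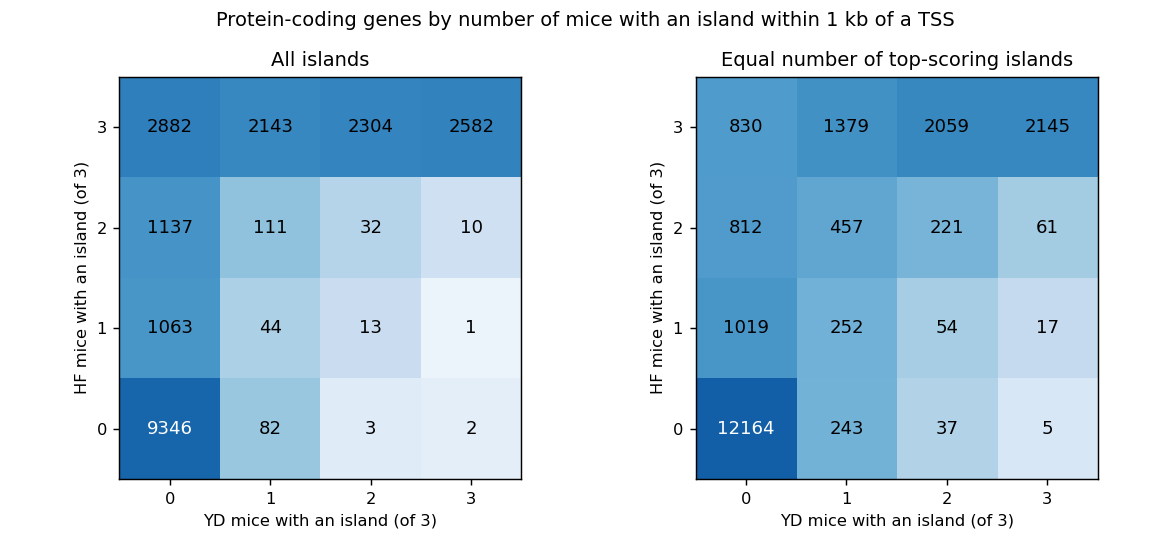
Numbers of protein-coding genes by the number of HF mice (vertical axis) and of YD mice (horizontal axis) with an island within 1 kb of a TSS, from all islands (left) and from 7825 top-scoring islands per list (right), with darker blue for more genes on a log scale. The upper left cells hold the 2882 and 830 HF-only genes, and the lower right cells hold 2 and 5 YD-only genes.

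HF-only genes sat in the middle of the HF lists and not at the top. To compare islands within a list, each score was given as its percentile among the islands of that library. The median percentile at HF-only genes was 63.4, 56.7 and 45.2 in HF_1, HF_2 and HF_3, whereas at genes marked in all 6 mice it was 92.5, 91.3 and 87.7. Among genes marked in all 3 HF mice, the share with no island in any YD mouse was 88.9% for mean HF percentiles of 10 to 20, 89.9% for 20 to 30, 62.1% for 50 to 60 and 0.819% for 90 to 100. In the top band, 1236 of 1710 genes (72.3%) were marked in all 3 YD mice. From the band of 20 to 30 upward the share of HF-only genes was lower in each higher band, as the plot of genes by HF percentile shows. Only 14 genes of the top band were HF-only.

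**Figure D2:**
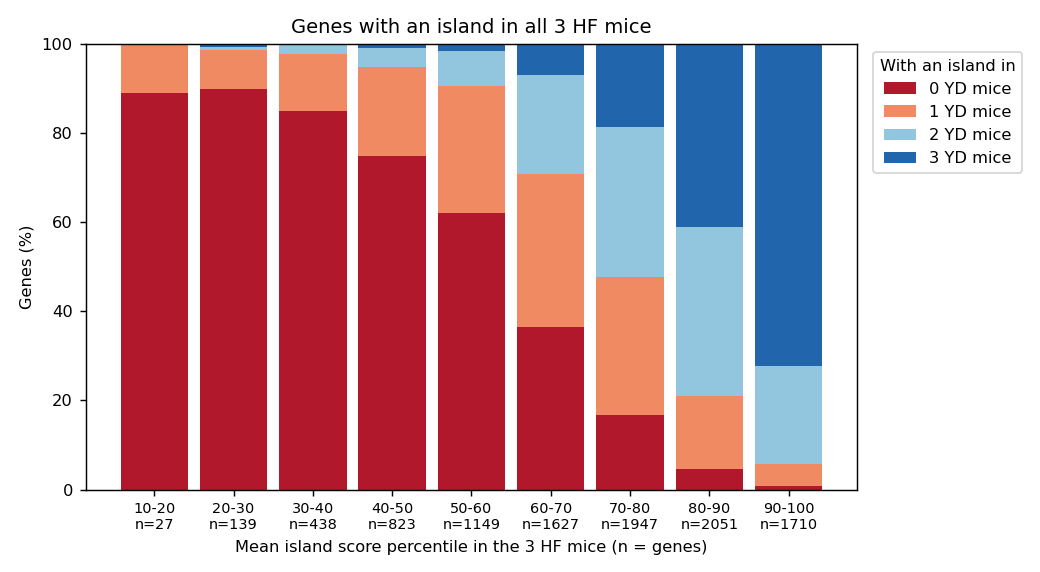
Genes with an island in all 3 HF mice, in bands of their mean score percentile in HF (horizontal axis, with the number of genes), and the share of each band in percent with an island in 0, 1, 2 or 3 YD mice (stacked bars). Red, no YD mouse, is 88.9% in the lowest band, 89.9% in the next and 0.819% in the highest.

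The HF islands at these genes were mostly at the start site itself. For 2215 of the 2882 genes (76.9%) a TSS lay inside an island in all 3 HF mice. For 46 genes (1.60%) an HF island also overlapped an island of a YD mouse that stopped short of the 1 kb limit, and for 94 (3.26%) a YD island lay between 1 and 3 kb from the TSS. The HF islands merged into 2957 regions, of which 211 served 2 or more HF-only genes, so that the genes are not all separate observations. The region with the most HF-only genes, chr1:53296001-53298400 in mm10, served Ormdl1, Pms1 and Gm28778.

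The HF-only genes with the highest scores that were HF-only in both sets of lists were led by 3 that shared the island with a neighbouring gene. At Rnf151, a ring-finger gene beside Rps2 and Ndufb10 on chromosome 17, the percentiles were 99.3, 98.9 and 99.0 in HF_1, HF_2 and HF_3, and the HF_1 island spanned chr17:24718401-24724800. At Sarm1, which encodes an NAD-cleaving enzyme of axon degeneration and lies beside the vitronectin gene Vtn, they were 97.7, 96.3 and 98.1. At Gm17334, beside the interferon regulatory factor gene Irf1, they were 92.9, 97.3 and 96.5. At all 3 an HF island overlapped a YD island, but only the HF islands came within 1 kb of the TSS of the named gene. The same held for Car11 beside the clock output gene Dbp and for H2-Ke6 beside Rxrb and Ring1. At these 5 genes the locus thus carried an island in at least 1 YD mouse. The HF islands lay nearer the TSS of the named gene. At Dbp presence differed too, since among the YD mice YD_2 alone had an island there, 400 bp wide.

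The others of this set had no overlapping YD island. Caskin2, which shared its island with Tsen54, had percentiles of 97.9, 87.9 and 98.5 in the HF mice. Abhd15, whose protein is linked to the restraint of lipolysis by insulin, shared an island with Trp53i13 (chr11:77513001-77518200 in HF_1) at 91.7, 95.0 and 94.7. Zfp91 and Lpxn shared an island at 94.6, 94.4 and 91.7. Usp1, the deubiquitinase of the Fanconi anaemia pathway, had 95.6, 90.8 and 90.1, and Ino80, the ATPase of a chromatin remodelling complex, had 94.7, 94.8 and 85.8. The islands of these genes stood in the upper part of each HF list, at percentiles of 85.8 or more, and no YD list had one at them. Islands at Abhd15, Zfp91 and Ino80 were present in 9 of the 9 libraries of the other diets, and at Usp1 in 8.

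The promoters of the leading genes and of 3 genes of the pathways described further on are shown to give their CpG content. Each runs from 250 bases before to 50 bases after a RefSeq start site (GRCm38.p6, the mm10 assembly), 5′ to 3′ on the strand of the gene, with CG dinucleotides in capitals. They are Rnf151 (chr17:24718008-24718307, minus strand), Sarm1 (chr11:78497705-78498004, minus), the YD-only gene Mucl2 (chr15:103899263-103899562, minus), the clock genes Nr1d2 (chr14:18239057-18239356, minus) and Bhlhe41 (chr6:145865371-145865670, minus), and the cholesterol synthesis gene Idi1 (chr13:8885356-8885655, plus).
Rnf151: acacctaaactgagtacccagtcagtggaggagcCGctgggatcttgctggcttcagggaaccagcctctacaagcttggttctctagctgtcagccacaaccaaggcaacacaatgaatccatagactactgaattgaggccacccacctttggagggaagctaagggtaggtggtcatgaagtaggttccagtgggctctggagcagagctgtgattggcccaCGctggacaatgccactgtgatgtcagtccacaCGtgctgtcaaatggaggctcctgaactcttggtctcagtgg
Sarm1: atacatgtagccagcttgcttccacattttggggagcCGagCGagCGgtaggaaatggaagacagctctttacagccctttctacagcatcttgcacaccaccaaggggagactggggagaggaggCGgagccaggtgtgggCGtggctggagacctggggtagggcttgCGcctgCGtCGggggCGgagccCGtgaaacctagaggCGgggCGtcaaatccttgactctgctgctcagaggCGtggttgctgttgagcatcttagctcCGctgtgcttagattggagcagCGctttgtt
Mucl2: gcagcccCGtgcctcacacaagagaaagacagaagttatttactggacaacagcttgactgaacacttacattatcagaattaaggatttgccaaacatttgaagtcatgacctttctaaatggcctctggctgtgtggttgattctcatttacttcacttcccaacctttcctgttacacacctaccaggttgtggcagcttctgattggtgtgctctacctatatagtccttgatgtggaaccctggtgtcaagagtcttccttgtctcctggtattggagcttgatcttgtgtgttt
Nr1d2: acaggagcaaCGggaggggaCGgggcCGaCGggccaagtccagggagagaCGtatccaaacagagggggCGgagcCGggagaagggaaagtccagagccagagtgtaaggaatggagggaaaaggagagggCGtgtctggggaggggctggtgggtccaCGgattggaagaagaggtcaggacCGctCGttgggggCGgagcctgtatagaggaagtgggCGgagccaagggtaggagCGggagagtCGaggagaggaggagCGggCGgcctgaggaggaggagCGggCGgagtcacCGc
Bhlhe41: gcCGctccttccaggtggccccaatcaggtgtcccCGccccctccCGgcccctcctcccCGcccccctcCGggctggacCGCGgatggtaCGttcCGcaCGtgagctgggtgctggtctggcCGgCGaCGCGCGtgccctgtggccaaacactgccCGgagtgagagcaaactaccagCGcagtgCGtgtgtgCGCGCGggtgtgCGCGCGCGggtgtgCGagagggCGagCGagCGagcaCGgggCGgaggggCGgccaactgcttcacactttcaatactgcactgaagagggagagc
Idi1: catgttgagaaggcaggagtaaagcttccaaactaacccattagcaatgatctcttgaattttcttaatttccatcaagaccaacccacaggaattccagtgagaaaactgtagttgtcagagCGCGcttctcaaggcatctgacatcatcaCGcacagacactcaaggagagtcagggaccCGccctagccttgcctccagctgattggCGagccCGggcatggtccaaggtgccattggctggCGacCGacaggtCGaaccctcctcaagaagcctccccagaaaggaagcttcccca

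These windows held 3 CG dinucleotides at Rnf151, 15 at Sarm1, 1 at Mucl2, 20 at Nr1d2, 32 at Bhlhe41 and 9 at Idi1. The Rnf151 window lay outside the best-scoring islands of HF_1 and HF_2, and the Nr1d2 window outside that of HF_2. The Mucl2 window lay outside those of YD_1 and YD_2. In these mice the CpG count does not describe the sequence under the island. Ank1, Gm17334 and Sfi1, whose island had the highest mean percentile of the genes marked in all 6 mice, had no entry in the table of promoters. Over the first listed promoter of 16433 of 21728 gene symbols, the median of CpG observed over expected was 0.769 at 2249 HF-only genes, 0.814 at 2104 genes marked in all 6 mice, 0.239 at 6753 genes marked in none and 0.601 over all. The median GC content was 62% at HF-only genes, 61.3% at genes marked in all 6 mice and 50% at unmarked genes. On both measures the HF-only promoters lay closer to those marked in all 6 mice than to the unmarked ones.

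In the same promoters 7 short motifs were searched on both strands, at HF-only genes, at genes marked in all 6 mice (all-6) and at all genes. The GC box GGGCGG, bound by Sp1-type factors, was in 68.4% of HF-only promoters, 64.5% of all-6 promoters and 48.3% of all promoters. The ETS motif CCGGAAGT was in 6.49% of HF-only promoters, 12.5% of all-6 promoters and 5.55% of all. The NRF1 motif GCGCATGC was in 6.45% and 5.89% (3.76% of all), and the cyclic AMP response element TGACGTCA in 3.29% and 3.99% (2.44% of all). The E-box CACGTG, the letters read by CLOCK and BMAL1 and by MYC, was in 11.2% and 9.93% (8.15% of all). CCAAT was in 40.4% and 40.8% (38.8% of all), and the TATA box TATAAA in 5.78% and 7.22%, against 12.8% of all and 20.7% of unmarked promoters. These shares describe sequence letters and carry no test.

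Genes were then read by function in 38 lists. HF-only genes made up more than the 13.2% of all protein-coding genes in 17 of the 38 lists, and none of the lists held a YD-only gene. Since a list of genes that no liver cell marks must hold few HF-only genes, each count is read beside the genes of the list that were marked in all 3 HF mice, of which 29.1% were HF-only and 26.1% were marked in all 6 mice over the whole genome. By this measure the HF-only share was 50% for the core clock, 40.5% for DNA replication and Fanconi repair, 39.5% for centrosomal and intraflagellar genes, 37.5% for the interferon response, 33.3% for cholesterol and 31.4% for mitochondrial carriers. It was also 44.4% for cytokines and chemokines, 37.5% for clustered protocadherins and 36.4% for histocompatibility genes. The last share is 4 of 11 genes of a list drawn by the name H2-. It counts H2-Ke6, where an HF island overlapped a YD island and whose name alone placed it there. For Hox genes it was 100%, from only 2 genes marked in all 3 HF mice. The share lay below 29.1% in several lists, at 28.8% for ubiquitin enzymes, 27.4% for Zfp genes, 26.7% for complement and coagulation, 25% for AMPK and sirtuins, 21.4% for insulin and mTOR signalling and 18.4% for mitochondrial ribosomal proteins. It was 14.3% for fatty acid and triglyceride synthesis, 12.9% for glucose metabolism and 11.54% for the H3K4 enzymes.

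Counted over all members of a list, the core clock held the highest HF-only share of the 38 lists, 47.6%. The clock runs on the activators CLOCK, NPAS2 and BMAL1 (Arntl), the PER and CRY repressors that they induce, and a second loop that includes the REV-ERB receptors (Nr1d1 and Nr1d2). Of 21 clock genes 10 were HF-only and 5 were marked in all 6 mice. The activator gene Clock had percentiles of 82.6, 74.4 and 53.1 in HF_1, HF_2 and HF_3, and its substitute Npas2 had 54.6, 59.8 and 40.7. Of the repressors, Per1 had 93.0, 75.1 and 81.0, Per2 had 50.5, 7.12 and 57.6, and Per3 had 57.7, 25.2 and 5.17. The repressor Bhlhe41 (DEC2) had 44.9, 11 and 31.5, and Csnk1e, a kinase that marks PER proteins for decay, had 58.8, 19.6 and 31.5. In the second loop, Nr1d2 had 70.5, 60.05 and 54.6, while Tef, an output transcription factor, had 77.6, 62.4 and 51.1. Apart from Per1, Clock, Tef and Nr1d2, these islands were in the middle or lower part of the HF lists.

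The remaining clock genes were split. Arntl, Nr1d1, Rora, Hlf and Bhlhe40 were marked in all 6 mice, with Nr1d1 at 97.6, 96.8 and 91.2 in HF and 71.6, 95.2 and 95.4 in YD. Cry1 and Cry2 lacked an island in YD_1 alone, Dbp and Csnk1d had one in YD_2 alone among the YD mice, and Ciart was marked in HF_1 alone of the 6 mice. With an equal number of islands, 2 of the 21 genes were HF-only, Clock and Per1. Omitting any mouse of the 6 in turn gave 10 to 12 HF-only clock genes in the full lists. Omission loosens the rule, so this count could not fall below 10. Over all protein-coding genes omission gave 2921 to 3977 HF-only genes, against 2882 with all mice. Islands at Per2, Per3 and Bhlhe41 were present in all 3 CR mice, with Per2 at 51.9, 84.7 and 94.9.

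**Figure D3:**
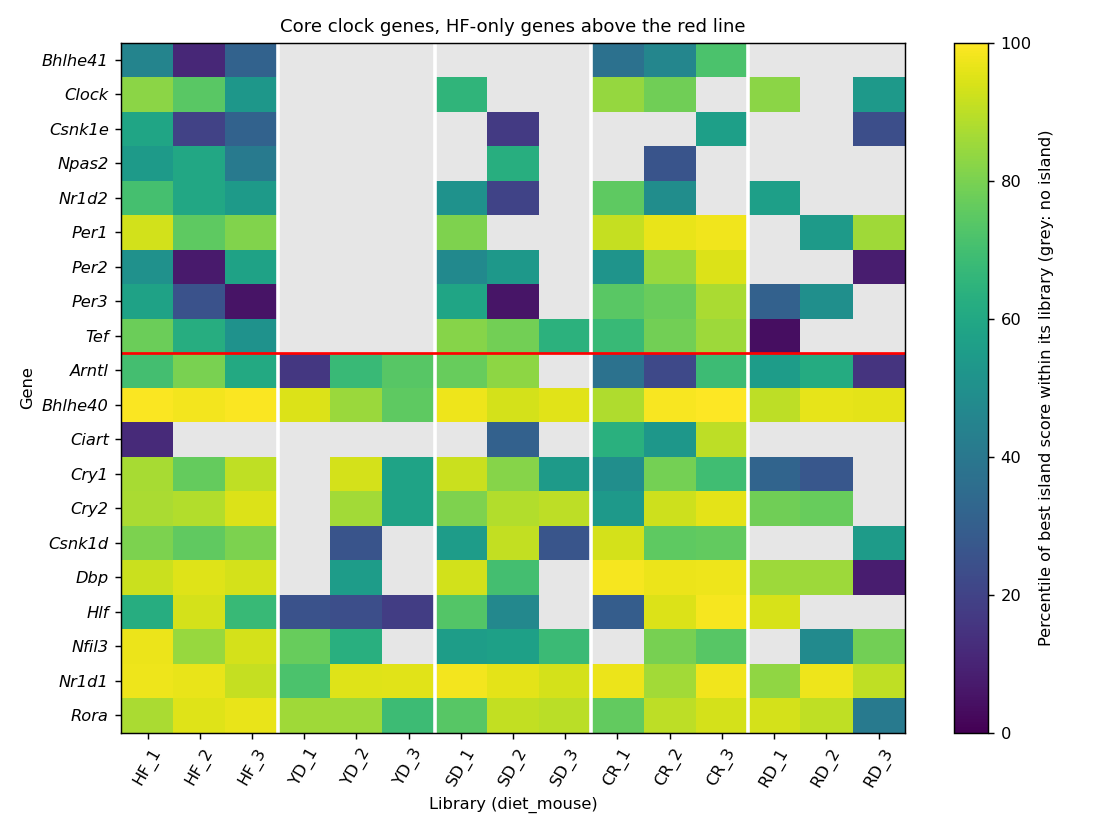
Percentile of the best island score within its library (colour, 0 to 100) at 20 core clock genes (rows) in the 15 libraries (columns, by diet and mouse), with grey where no island lay within 1 kb of a TSS. The 9 rows above the red line are grey in the 3 YD columns and coloured in the 3 HF columns, and most are coloured again in CR.

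Lipid and sugar metabolism gave unequal counts. In cholesterol synthesis and uptake, 8 of 26 genes were HF-only and 7 were marked in all 6 mice. The HF-only genes covered the mevalonate steps (Mvk, Mvd, Idi1), the cyclisation of squalene oxide (Lss), later sterol steps (Nsdhl, Hsd17b7, Dhcr7) and the SREBP escort Scap. Idi1, which interconverts the isoprene units, had percentiles of 83.7, 69.7 and 87.2 in the HF mice. Mvd had 83.1, 60.1 and 67.2, and Hsd17b7 had 60.6, 64.5 and 68.1. With an equal number of islands, Idi1 and Dhcr7 were HF-only. The genes Hmgcs1 and Insig1 of the same list were marked in all 6 mice.

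In fatty acid oxidation and ketogenesis, 1 of 30 genes was HF-only, Acot2, and 14 were marked in all 6 mice, among them Hadha, Hadhb and Cpt2. The share, 3.45% of the 29 genes marked in all 3 HF mice, was below the 29.1% over the genome. Among 36 genes of fatty acid and triglyceride synthesis and lipid droplets, 4 were HF-only and 9 were marked in all 6 mice, including Fasn, Srebf1, Dgat2 and Plin2. The share of HF-only genes, 14.3% of the 28 marked in all 3 HF mice, was below that over the genome. Lipe, hormone-sensitive lipase, had 83.6, 78.8 and 82.6 in the HF mice, the droplet protein gene Plin3 had 77.9, 56 and 56.6, the droplet and lipoprotein gene Cideb had 56.9, 66.5 and 60.5, and Abhd5, the activator of adipose triglyceride lipase, had 61.5, 50.8 and 56.1. Pparg, which is not in this list, is a regulator of fat storage whose hepatic expression is known to rise in steatosis. It had 64.8, 65.6 and 75.9 and was HF-only in the equal-number lists too, as was Lipe. Neither island was confined to HF among the diets. Islands at Pparg were also present in 2 SD, 3 CR and 1 RD mice, and at Lipe in 3 SD, 3 CR and 1 RD mice.

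Of 33 genes of glucose, glycogen and pyruvate metabolism 4 were HF-only. The glucose transporter gene Slc2a1 had percentiles of 73.6, 67.8 and 68.3 in the HF mice, Pdha1 of pyruvate dehydrogenase had 61.8, 56.4 and 47.5, and Pdk1, which inhibits that enzyme, had 55.4, 64.6 and 39.8. Slc2a1 was HF-only in the equal-number lists as well. G6pc and Fbp1 of gluconeogenesis were among 11 genes marked in all 6 mice. In insulin and mTOR signalling, 6 of 29 genes were HF-only, led by Pik3ca at 81.5, 79.2 and 85.1 and Tsc2 at 67.8, 79.1 and 73.3. Of 21 genes of AMPK, the sirtuins and PGC-1, 5 were HF-only, with the deacylase gene Sirt7 at 90.2, 84.0 and 94.7, although a Sirt7 island in HF overlapped a YD island. These percentiles were not of 1 shared island. In HF_1 and HF_3 the best island lay 569 and 369 bp from a TSS of Sirt7. In HF_2 it was a separate island over another TSS (chr11:120624401-120625600). Of 47 mitochondrial carriers 11 were HF-only, led by the citrate carrier Slc25a1 at 82.2, 89.5 and 84.1, which was marked in all 9 libraries of the other diets.

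The large housekeeping complexes were marked in both diets. None of 83 subunits of oxidative phosphorylation was HF-only and 43 were marked in all 6 mice, while the equal-number lists gave 2, Atp5d and Ndufs8. Of 80 cytosolic ribosomal proteins 3 were HF-only (Rplp0, Rps20 and Rpl36a) and 38 were marked in all 6 mice. The proteasome list had 3 of 40, counting Psmc3ip, which is no subunit, and 22 marked in all 6. Of 78 mitochondrial ribosomal proteins 14 were HF-only, led by Mrpl34 at 84.5, 61.9 and 83.9, and 27 were marked in all 6. The HF-only share, 18.4% of those marked in all 3 HF mice, was below the 29.1% over the genome.

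Genes of DNA replication and repair and of the centrosome and cilium were also among the lists with the highest shares. In DNA replication and Fanconi repair 15 of 48 genes were HF-only, among them Mcm3, Mcm5 and Mcm10 of replication initiation, Pold2, Pold3, Pole2, Pole4, Rfc1 and Rfc2 of the replication fork, and Fancc, Fancf, Fancg, Fanci, Fancl and Brca2 of crosslink repair. Pold3 had percentiles of 76.5, 84.3 and 65.3 and was HF-only in both sets of lists. Rfc1 had 63.4, 67.1 and 41.7. Others of the list lay lower, with mean HF percentiles of 32.5 at Mcm10, 33.1 at Pole2, 34.9 at Mcm5 and 37.6 at Brca2. In the equal-number lists Mcm10, Pole2, Mcm5 and Brca2 had no island in any of the 6 mice. Of all genes marked in all 3 HF mice with a mean percentile of 30 to 40, 84.9% were HF-only. In intraflagellar transport and centrosomal genes 17 of 58 were HF-only, led by Cep70 at 63.9, 86.3 and 71.2. Only 6 of 48 and 6 of 58 genes of these lists were marked in all 6 mice. With an equal number of islands each of the lists had 3 HF-only genes, 6.25% and 5.17% of their members, against 3.82% over all genes. Cyclins and their kinases had 4 HF-only genes of 42 (12.5% of those marked in all 3 HF mice), including Ccne2 at 67.2, 9.8 and 45.2.

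Of 394 Zfp zinc finger genes 77 were HF-only, and 71 were marked in all 6 mice. Besides Zfp91, the leading ones were Zfp518a at 78.8, 86.2 and 95.7 and Zfp367 at 82.0, 85.8 and 61.0. With an equal number of islands 16 were HF-only, 4.06% of the list. Of 92 ubiquitin conjugating enzymes and proteases 19 were HF-only, with Ube2n, the enzyme of lysine 63 chains, at 76.8, 90.1 and 74.8. In the equal-number lists 11 were HF-only, 12.0% against 3.82% of all genes, and 8 of these were HF-only in the full lists too. Among methyltransferases and demethylases of H3K4 in any methyl state, with their cofactors, 3 of 26 were HF-only. They were Dpy30, a shared subunit of the SET1 and MLL complexes, at 78.4, 76.3 and 64.9, the monomethyltransferase gene Setd7 at 69.3, 72.3 and 87.1, and Kdm1a, whose enzyme does not remove the trimethyl mark, at 62.4, 72.8 and 38.6.

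**Figure D4:**
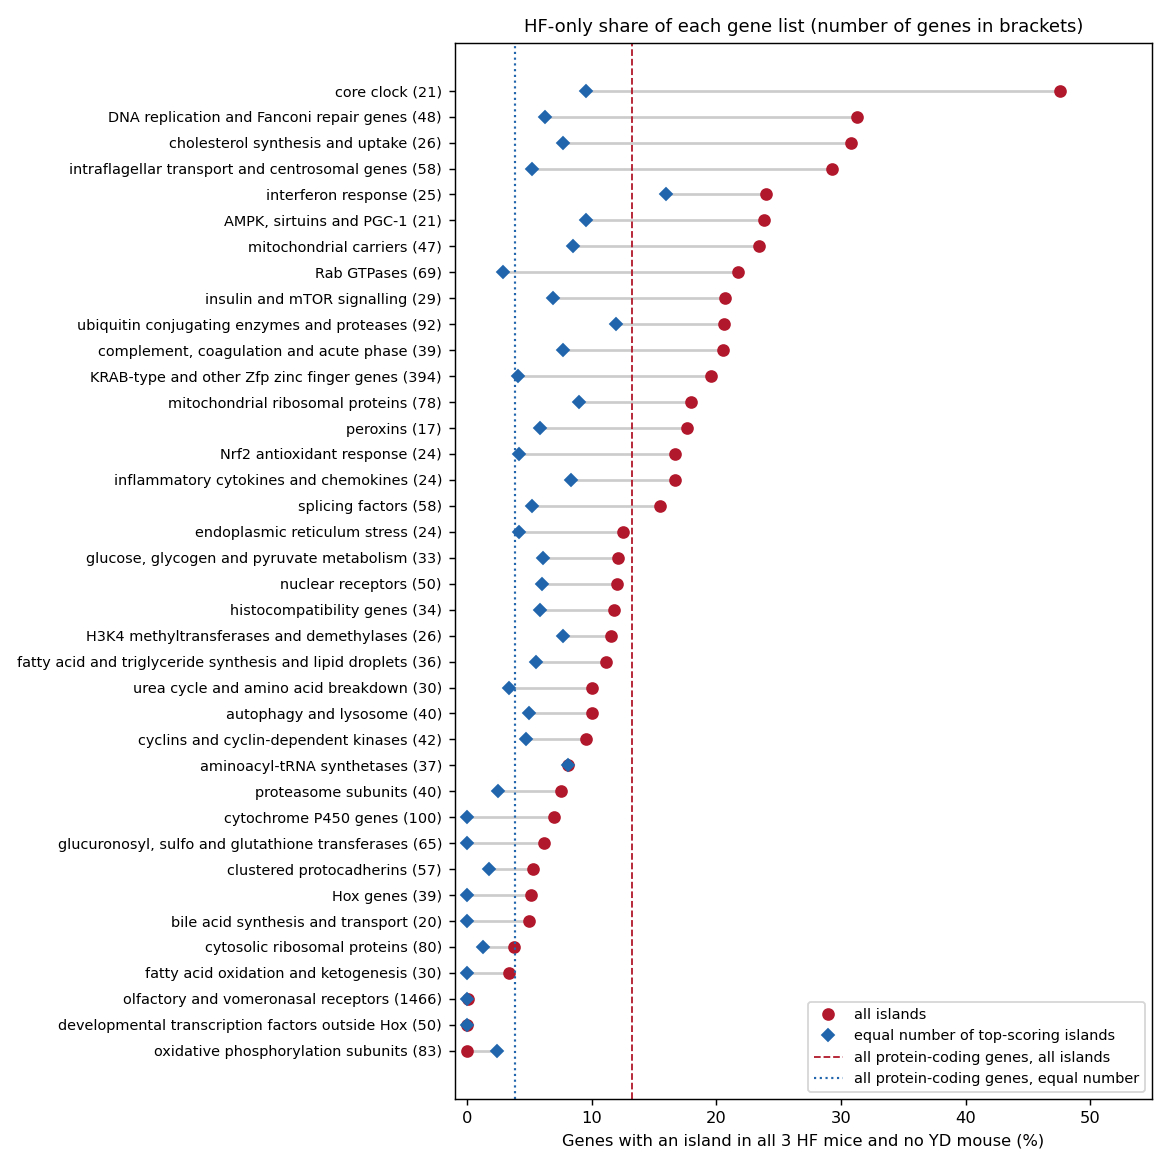
Share of each of 38 gene lists, in percent of its genes, with an island in all 3 HF mice and in no YD mouse, from all islands (red circles) and from an equal number of top-scoring islands (blue diamonds), with the shares of all protein-coding genes as dashed (13.2%) and dotted (3.82%) lines. The core clock is highest with all islands, and interferon response is highest with an equal number.

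Immune, plasma protein and cytochrome P450 genes were read against the 29.1% HF-only over all genes marked in all 3 HF mice. The share was 37.5% of 16 such genes for the interferon response and 44.4% of 9 for cytokine and innate signalling genes. It was 26.7% of 30 for complement, coagulation and the acute phase and 29.2% of 24 for cytochrome P450 genes, below or near that of all genes. In the interferon response 6 of 25 genes were HF-only, and 4 in the equal-number lists, 16.0%, the highest share there. Psmb8, of the immunoproteasome, had percentiles of 85.3, 84.5 and 76.3, Usp18, which removes ISG15, had 81.3, 64.8 and 61.4, Irf9 had 74.1, 57.4 and 70.2, and Irf7 had 70.6, 71.3 and 58.7. Of 39 genes of complement, coagulation and the acute phase 8 were HF-only, led by C4b at 71.6, 71.7 and 86.2 and C8a at 87.7, 70.8 and 70.9. Among cytokine and innate signalling genes, 4 of 24 were HF-only, Nfkb1 at 78, 59.2 and 83.1, Cxcl1 at 72.3, 64.2 and 52.1, Tlr4 at 73.7, 65.7 and 44.9, and Relb at 50.3, 55 and 33.3. Of 7 HF-only cytochrome P450 genes among 100, Cyp7b1 of the alternative bile acid pathway had 63.3, 12.5 and 43.2, and none was HF-only with an equal number of islands.

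Markers of other liver cells had higher mean counts in HF, but unequally among the HF mice and mostly highest in HF_1. HF_2 was no higher than the highest YD mouse for Kupffer cell, cholangiocyte and lymphocyte markers. Over all protein-coding genes, 54.6%, 47.6% and 51.5% were marked in HF_1, HF_2 and HF_3. In YD_1, YD_2 and YD_3 it was 24.3%, 26.5% and 17.5%, so the marker counts are part of a general difference. Of 15 Kupffer cell and macrophage markers, 10, 1 and 3 were marked in HF_1, HF_2 and HF_3 and 0, 1 and 1 in YD_1, YD_2 and YD_3. Of 15 markers of sinusoidal endothelium the numbers were 15, 7 and 10 in HF and 3, 2 and 1 in YD, and of 15 stellate cell markers 8, 2 and 4 in HF and none in any YD mouse. The defining Kupffer cell genes Adgre1, C1qa and Cd5l were marked in HF_1 alone, while Csf1r, Marco, Timd4 and Vsig4 had no island in any of the 6 mice. Of 15 hepatocyte markers, 15, 14 and 14 were marked in HF and 13, 13 and 8 in YD, and Alb, Ttr and Hnf4a were marked in all 6. Of 15 lymphocyte markers 3, 0 and 1 were marked in HF and none in YD, of 11 cholangiocyte markers 4, 1 and 3 in HF and 1, 1 and 0 in YD, and of 11 adipocyte markers 3, 2 and 3 in HF and none in YD. Of the adipocyte markers, 2 of 11 were HF-only, Lipe and Pparg. Of 39 Hox genes, 9, 3 and 5 were marked in HF and none in any YD mouse, and 2 were HF-only. HF-only genes numbered 3 of 57 clustered protocadherins and 1 of 1466 olfactory and vomeronasal receptors. The part of other cells in the counts of immune genes was not tested.

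The YD-only genes were Ank1, which encodes the ankyrin of the red cell membrane, and Mucl2, a mucin-like gene. At Ank1 the islands were short, 1000, 600 and 400 bp in YD_1, YD_2 and YD_3, with percentiles of 54.4, 40.5 and 93.6, and lay 101 to 301 bp from a TSS. Islands at Ank1 were also present in 2 SD, 3 CR and 3 RD mice, so that HF was the diet without one. At Mucl2 they were 3600, 1600 and 600 bp wide with percentiles of 40.1, 33.3 and 30.9, and lay 89 to 890 bp from a TSS. The YD_3 island (chr15:103899401-103900000) overlapped neither that of YD_1 nor that of YD_2, so the mice shared no single region there. An island at Mucl2 was present in 1 library of the other diets. No YD-only gene was left when the TSS had to be inside the island. The equal-number lists added Pclo, Igfbp2 and Cyp2c37. Pclo and Igfbp2, for a binding protein of insulin-like growth factors, were marked in all 3 HF mice in the full lists, with Igfbp2 at 44.6, 51.3 and 18.6 in HF and 83.8, 50 and 74 in YD, and Cyp2c37 in HF_1.

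The libraries of the other diets, which took no part in the choice of genes, marked many of the HF-only genes. SD_1, SD_2 and SD_3 marked 69.9%, 71.3% and 35.5% of them. CR_1, CR_2 and CR_3 marked 45.7%, 82.7% and 83.9%, and RD_1, RD_2 and RD_3 marked 32.8%, 33.4% and 25.7%. Of all protein-coding genes the same mice marked 43.1%, 43.0% and 32.7% (SD), 35.5%, 46.5% and 48.2% (CR) and 31.2%, 34.7% and 27.8% (RD). The mean share of HF-only genes was 58.9% ± 20.3 in SD, 70.8% ± 21.8 in CR and 30.6% ± 4.24 in RD (SD, n = 3 each). In RD the share was thus within 3 points of that of all genes in each mouse, and in SD and CR it was higher in each mouse, by less than 3 points in SD_3. All genes include the 9346 marked in none of the 6 mice, of which SD, CR and RD marked 0.717%, 1.26% and 1.08% on average. A share near that of all genes is therefore not the share usual for genes marked in HF. With an equal number of islands the means were 58.5% in SD, 63.8% in CR and 28.3% in RD, against 30.7%, 32.1% and 21.3% of all genes. The RD mice then differed among themselves, since RD_1 and RD_3 marked 37.0% and 36.0% of HF-only genes against 24.3% and 22.2% of all genes, and RD_2 marked 11.8% against 17.3%.

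**Figure D5:**
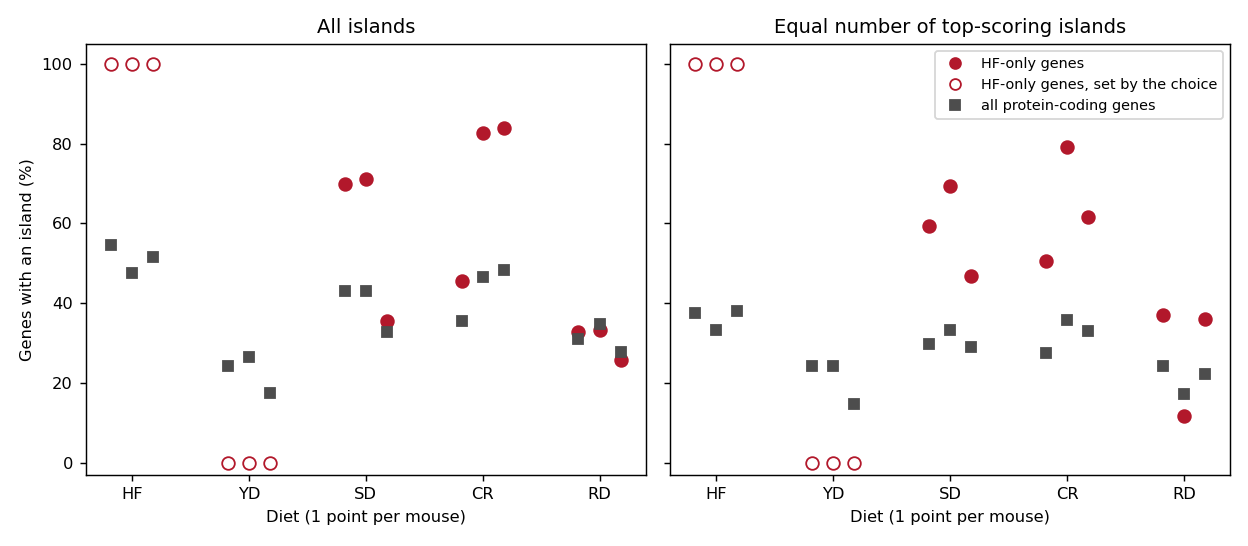
Share of HF-only genes (red circles) and of all protein-coding genes (grey squares) with an island, in percent, in each mouse of the 5 diets, from all islands (left) and an equal number of top-scoring islands (right). The open circles in HF and YD are set by the choice of genes, and the filled ones are highest in CR_2 and CR_3 on the left and in CR_2 on the right.

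Of the 2882 genes, 108 were marked in all 9 libraries of the other diets and were thus missing from YD alone, among them Abhd15, Zfp91, Ino80, Slc25a1 and Serpina10, which encodes the protein Z-dependent protease inhibitor. Serpina10 had percentiles of 99.1, 64.1 and 97.9 in the HF mice. At the other end 93 genes had no island in any of those 9 libraries and were marked in HF alone. Among the highest of these were Gm12248 at 71.1, 70.4 and 46.9, the innate receptor gene Tlr12 at 59.4, 70.0 and 51.9, the cornified envelope gene Lor at 59.1, 62.2 and 44.5, and Inpp5d, a lipid phosphatase of blood cells, at 61.7, 56.5 and 34.9. The co-stimulatory ligand gene Icosl and Plac8 were also among them. In the equal-number lists Gm12248 was still HF-only, whereas Tlr12, Lor and Plac8 were not. Inpp5d and Icosl then had no island in any of the 6 mice. These names were chosen after their values were seen.

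At genes marked in all 6 mice, the width of the islands was compared. The median summed width was 3800, 2600 and 3200 bp in HF_1, HF_2 and HF_3 and 2600, 1600 and 1200 bp in YD_1, YD_2 and YD_3, and the lowest HF mouse equalled the highest YD mouse (difference of means 1400 bp, two-sided exact permutation p = 0.2). Gene by gene, after the widths of each library were centred on their median, 0 of 2582 genes passed an adjusted p under 0.05 in limma (0% called), and 237 had an unadjusted p under 0.05. The centring removed a shift of 0.85 on the log2 scale toward wider islands in HF. The largest centred differences were at Cic, a transcriptional repressor, with 7000, 3600 and 7800 bp in HF and 2000, 1200 and 200 bp in YD (log2 difference 2.00 ± 0.50 SE, limma adjusted p = 0.307), at Osbpl9 (1.88) and at Gata6, a liver and endoderm transcription factor, with 7800, 7200 and 7800 bp against 2400, 1600 and 600 bp (1.64 ± 0.35 SE, limma adjusted p = 0.307). In the other direction they were at Gtf3c3 (-1.76), Zfp729a (-1.43) and Pdss1 (-1.38), of coenzyme Q synthesis, where the islands were 1600, 1400 and 1400 bp in HF and 2400, 2000 and 1800 bp in YD. None of these 6 genes passed the test.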

How the data were processed

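H3K4me3 PAT-ChIP-seq islands of 3 HF and 3 YD livers were analysed, with the 9 lists of the other diets for reference. With bwa the authors mapped 50 bp single-end reads against mm10, then removed duplicates and reads with a MAPQ under 1 or outside chromosomes 1 to 19 and X with samtools, and called islands per library with SICER2 (fragment and window 200 bp, gap 400 bp, FDR under 0.05). Tool versions are not given in the sources used here. The authors deposited, for each island, a score, which SICER2 forms by adding, window by window, the negative natural log of each read count's Poisson probability. It is not scaled between libraries and was ranked within a list only. Read counts per island were not used here, so no counting errors are given. Read totals were recovered from the score steps with an effective genome fraction of 0.74, within 0.00046 of whole numbers.

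TSSs were those of GENCODE M21 (mm10; 139486 transcripts, 53843 genes, 21755 protein-coding). Symbols are those of the annotation; overlapping promoters share islands. Groups and replicate numbers came from the sample labels. Library measures were compared by two-sided exact permutation tests, and log2 island width by limma 3.58.1 (R 4.3.3) with Benjamini-Hochberg adjustment at 0.05. The software was Python 3.11.15 with scipy 1.17.1, pandas 2.3.3, matplotlib 3.10.9 and numpy 2.4.6, and the steps were tested on simulated data. The members and gene lists were chosen with earlier results of these data known. Named genes were drawn from the 12 HF-only genes of both sets of lists with the highest mean HF percentile, up to 3 HF-only genes with the highest mean percentile per list, all YD-only genes, and the 3 genes with the largest width difference each way. Further names, and the promoters of Nr1d2, Bhlhe41 and Idi1, were chosen after the data were seen. A list of 45 gene sets (38 functional, 7 of cell markers) was used, in which C5 and Mx2 had no match. Some members of the lists are counted but not reported here by name. Name patterns also took in Rab11fip genes, Ccnb1ip1, Psmc3ip and H2-Ke6. Alternatives were an equal number of islands, islands at or above the median score, islands of 600 bp or more, a distance of 3 kb, TSSs inside the island, all annotated genes, chromosomes 1 to 19, at least 2 of 3 mice, covered length, other centring or measures of width, the replicate block, the form of library name and the omission of each mouse.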

Additional observations from a re-analysis of the deposited data

How the results depend on the processing

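The direction of every library measure stayed the same under the alternatives, and no p fell below 0.1. The number of HF-only genes, 2882, moved to 830 with an equal number of islands and to 4666 with HF_1 alone against the YD lists, which share its form of name, a count that asks for 1 HF mouse in place of 3. Omitting 1 mouse gave 2921 to 3977, and in the equal-number lists 959 to 1461, against 830, with 1358 without HF_2, 1461 without YD_1, 1430 without YD_2 and 1841 for HF_1 alone; fewer mice loosen the rule. The YD-only count, 2, was 5 with an equal number of islands, 0 at or above the median score and with the TSS inside the island, 1 at a width of at least 600 bp (Mucl2), and 5 for at least 2 of 3 mice (with Olfr137, Vmn1r74 and Wdr63). Omitting 1 mouse gave 2 to 4 YD-only genes, with 4 without YD_1, where Olfr137 and Vmn1r74 joined. Without 1 mouse at a time, the share of HF-only genes marked in RD lay between 24.9% and 38.3%, with 24.9% without HF_2, 37.2% without YD_1 and 38.3% without YD_2; in SD it was 49.9% to 64.7% and in CR 61.6% to 75.7%. For the difference in islands per library the range was 8010.8 to 11916.3, for the share of protein-coding genes 25.8 to 30.3 points and for the median width 1100 to 1800 bp. The share of islands within 1 kb of a TSS differed by 11.8 points (exact permutation p = 0.5), by 36.6 with an equal number of islands (exact p = 0.1), and by 2.39 without HF_3 or 3.09 without YD_3, with 18.7 as the highest value. For island width, limma called 0 of 2582 genes with or without centring, and 0 to 1 without a mouse (Osbpl9 without YD_1), whereas score percentiles in place of width gave 10, of which 9 were higher in HF; the cause was not tested.

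No label says that the replicate numbers pair the mice. The correlations of same-numbered mice ranged from -0.018 to 0.070 and those of differently numbered mice from -0.079 to 0.058. These values do not settle whether the numbers pair the mice. With the replicate number as a block limma called 0 genes, and the exact permutation p was 0.25 (the smallest possible) for islands, with a difference of 9317.7, for the share of genes, 28.4 points, and for median width, 1400 bp, and 1 for the share of islands at TSSs. The comparisons in the form of library name, the shares in other diets and the omissions in equal-number lists were chosen after seeing the data. Presence or absence depends on the threshold of each list, so a gene counted as HF-only may carry the mark in YD below it.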

Other observations

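Merged over the 6 lists, the islands formed 36382 regions. Of these, 3162 were present in all 3 HF mice and no YD mouse, and 90.5% of them lay at a promoter of a protein-coding gene, with a median width of 2600 bp. The 2527 regions present in all 6 mice lay at such promoters in 85.5% and had a median width of 4400 bp. The other 30683 regions did so in 22.4%. The 10 regions present in all 3 YD mice and no HF mouse were placed differently, with 1 at a coding promoter (Ank1), 2 inside genes and 7 intergenic. The intergenic ones lay up to 43104 bp from the nearest gene start, that of Gm48387, and 1 lay 6809 bp from Obp2b, an odorant-binding protein gene.

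On the X chromosome 104 of 948 protein-coding genes (10.97%) were HF-only, but 14 (1.48%) were marked in all 6 mice, against 9.39% to 16.0% on the autosomes. The highest share of HF-only genes was on chromosome 15, 16.7%, and the lowest on chromosome 7, 10.6%.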
